A study of Mus musculus with 46 samples.

Results

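Bone marrow-derived macrophages (BMDM) of recurrent gliomas, taken after radiation combined with the inhibitor BLZ945, were compared with BMDM taken 5 days into the same combined treatment. The comparison held the 7 BMDM libraries whose titles name these stages, 4 from mice with a recurrent tumour (mice 67169, 67543, 67947 and 68362) and 3 from mice at 5 days (mice 65696, 65971 and 67537), out of 46 libraries from 23 mice in the series. All mice were of the nTVA strain, in which the nestin promoter drives the receptor for RCAS viruses, and lacked both copies of Ink4a/Arf, so the controls carried the same deletion. Tumours were started at 6 weeks of age by intracranial injection of DF1 chicken fibroblasts that release RCAS-PDGFB-HA. The combined treatment, labelled IR-BLZ945, joined radiation (IR) to BLZ945, a small molecule that blocks the CSF1 receptor. BMDM of 4 vehicle mice gave the level without treatment, BMDM of 4 recurrent and 2 5-day mice given IR alone gave a second course of recurrence, and microglia (MG) of the same 7 mice gave the change in the resident population. The labels state no radiation dose and no time of recurrence. They also do not say whether the inhibitor was still being given when recurrent tumours were taken.

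Macrophages of a glioma have at least a pair of origins: microglia, which settle the brain before birth, and cells that arrive from the blood as monocytes. Monocytes that enter a tumour can mature into macrophages or take on features of dendritic cells, which carry antigen to T cells through MHC class II molecules. Macrophages need signals through the CSF1 receptor to live and divide, while radiation damages DNA and activates p53, the transcription factor that halts the cell cycle and can start cell death.

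The BMDM gate required CD45, CD11b and CD49d and removed Ly6C+ and Ly6G+ cells, and genes of these proteins were checked first. Ptprc, which encodes CD45, ran from 8.78 to 9.72 log2 CPM (counts scaled to the size of the library) at 5 days and from 8.70 to 9.57 in recurrence, and Itgam, which encodes CD11b, from 8.59 to 9.03 and from 9.13 to 10.11. Itga4, which encodes CD49d, ran from 6.63 to 6.81 and from 5.60 to 6.77, with a log2 difference of -0.62 ± 0.39 (adjusted p = 0.415), so the gene behind the gate was present at both stages. Ly6c2, which the gate should remove, ran from 2.43 to 3.43 and from 1.16 to 3.63. Total counts ran from 7771613 to 11409399 at 5 days and from 11448165 to 12623745 in recurrence. Log levels of the 5-day libraries correlated across genes at 0.798 to 0.856 with each other and those of the recurrent libraries at 0.952 to 0.977. Markers of RNA composition also moved with the stage: Lars2 ran from 5.35 to 8.75 log2 CPM at 5 days and from 11.43 to 13.04 in recurrence, and Malat1, a nuclear RNA, from 11.20 to 12.16 and from 8.32 to 10.79. In other BMDM groups Lars2 ran from 3.02 to 7.73 in vehicle mice, 1.91 to 4.37 at 5 days of IR and 11.6 to 12.76 in IR recurrence. Recurrence and this RNA composition therefore cannot be told apart, also in the comparison of recurrence with vehicle and in the course after IR. The sexes were mixed, with Xist present in 65696, 67537 and 67947 and Y-linked genes in the other 4. Among the 5-day libraries, that of mouse 65971 stood apart in epithelial and neuronal genes, with Krt18 at 9.58 against 2.78 and 3.41 and Tubb3 at 6.62 against -1.27 and 1.96. Results without single libraries, and with a model term for the Malat1 minus Lars2 level, are given for many calls and list counts, but not all. A gene without such a note can still have lost its call in such a setting. With the term 75 of the 98 named genes that had passed no longer did. Among them, with no note on the term below, were Klf5, Wnt11, Clu, Dusp1, Bst2, Cyp51, Cxcl14, Tnc and Cx3cr1. The Malat1 minus Lars2 term rises and falls with the stage itself, so it takes up part of any difference between the stages. The sexes were unevenly spread over the stages, and with a sex-linked term 38 of the 98 no longer passed. Under it the genes that rose went from 9 to 2 for hypoxia and glycolysis and from 5 to 2 for iron and heme. Those that fell went from 7 to 4 for p53 targets and from 2 to 0 for MHC class I presentation. Mitosis stayed at 8 and MHC class II at 3.

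Of 14568 genes tested, 259 were higher in recurrence (1.78%) and 279 lower (1.92%) at an adjusted p of 0.05, by edgeR's quasi-likelihood test with Benjamini-Hochberg adjustment in 1 fit over the 23 BMDM libraries. Without adjustment 2815 genes had a p under 0.05, and the median log2 difference over all genes was -0.01. The 4 recurrent libraries lay wholly above the 3 5-day libraries for 256 of the 259 and wholly below them for 249 of the 279. These genes were picked by a test on the same libraries, so this separation is no further support for the calls. The count of 538 fell to 161 without the 5-day mouse 67537, to 189 without 65696, to 203 without the recurrent mouse 67169, to 248 without 67543 and to 298 without 67947, and was 489 without 68362 and 543 without 65971. Of 98 named genes that passed, 26 also passed with each of the 7 libraries left out in turn. Values after a gene are log2 differences ± SE, recurrence minus 5 days, with 4 and 3 mice, and levels are log2 CPM, on which a library without a count reads -3.58. Positions are of the GRCm38 (mm10) assembly.

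**Figure D1:**
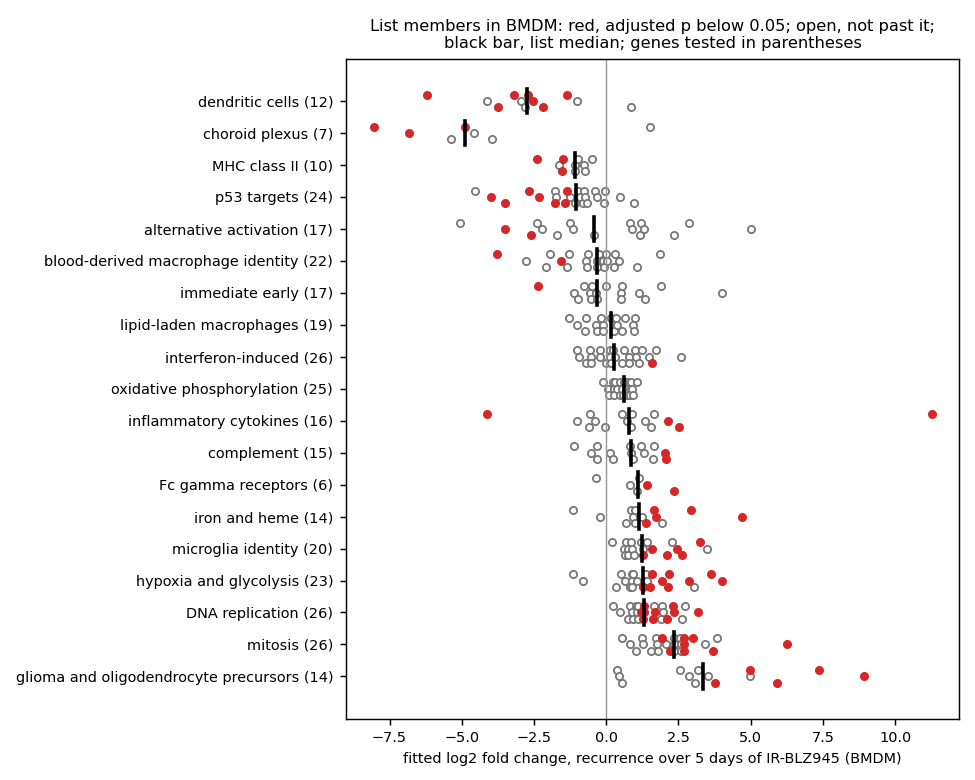
Fitted log2 differences between recurrence and 5 days of IR-BLZ945 (horizontal axis) for the members of 19 gene lists in BMDM, 1 point a gene, with red points past an adjusted p of 0.05, open points not past it and a black bar at each list's median. Dendritic cell genes lie furthest below 0 among the plotted lists of immune cells and states (median -2.75), and mitosis genes furthest above it (median 2.34).

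Genes that mark dendritic cells fell together. Of 12 tested, 7 were lower and none higher, where 1.92% of all genes were lower, and the median of the list was -2.75 against -0.01 for all genes. The summed level of the list went from 3330 to 4380 CPM at 5 days to 323 to 797 CPM in recurrence, with 974 to 1620 CPM in vehicle mice. Because these are bulk libraries, fewer dendritic-like cells and less of these RNAs per cell cannot be told apart.

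Cd209a (chr8:3743395-3748984), a C-type lectin of monocyte-derived dendritic cells, read 10.10, 9.94 and 10.58 in the 5-day mice 65696, 65971 and 67537. In recurrence it read 4.50, 4.11, 2.63 and 4.29. The 4 recurrent libraries were all below the 3 5-day ones by more than the spread within either group, and the difference was -6.20 ± 0.77 (adjusted p = 0.000144). Of its neighbours of the same family, Cd209d fell by 6.61 ± 1.44 and Cd209e by 7.32 ± 1.85, and Cd209f, with 516 counts at 5 days and none in recurrence, was at least 274-fold lower (adjusted p = 0.0132, 0.0285 and 0.0296). Cd209a passed with each of the 7 libraries left out and with the Malat1 minus Lars2 term, and Cd209d passed in each case but that without 67169 (adjusted p = 0.0541) and with the term (0.171). Cd209e passed only without 65971, with adjusted p values of 0.0629 to 0.0898 without the others, and Cd209f with no library left out (0.0598 to 0.0793), and neither passed with the term (0.285 and 0.244). These paralogs lie close together on chromosome 8, and counting could have split reads between them. Cd209f also stood in a list of 12 genes of border-associated macrophages, where it alone passed (1.92% of all genes were lower). In that list 8 genes had positive values, and the median was 0.91.

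Zbtb46, a transcription factor of classical dendritic cells, fell by 3.75 ± 0.60 (adjusted p = 0.00187), from 6.90, 5.97 and 6.86 to 1.93, 2.33, 1.60 and 4.17. Ccr7 (chr11:99144199-99155077), the receptor that leads dendritic cells to lymph nodes, read 10.72, 10.40 and 10.72 at 5 days and 6.56, 7.81, 7.07 and 7.85 in recurrence, a change of -3.20 ± 0.49 (adjusted p = 0.00111). Flt3, the receptor for the growth factor of dendritic cell precursors, fell by 2.70 ± 0.50 (adjusted p = 0.00539), with 7.69, 7.97 and 7.89 against 4.36, 4.61, 5.06 and 6.00. No recurrent library reached a 5-day library in any of these genes, and mouse 68362 was the highest of the recurrent mice for each of them. Siglech, a marker of plasmacytoid dendritic cells that microglia also express, was the 1 member with a positive value, 0.87, and its groups overlapped. The number of members that fell was 5 to 7 with each library left out, 8 without 3 BMDM libraries of other groups that an earlier analysis of these data had doubted (mice 122, 124 and 65698), and 2 with the Malat1 minus Lars2 term, under which the median was -2.37.

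Single genes of other lists were lower too (1.78% of all genes were higher and 1.92% lower). Of 16 inflammatory cytokine genes 3 rose and 1, Il12b, fell, and of 12 CC chemokines 2 rose and 2 fell. Il12b, the p40 subunit of interleukins 12 and 23, read 7.32, 8.73 and 8.14 at 5 days and 2.83, 3.57, 4.51 and 4.58 in recurrence, a change of -4.14 ± 0.61 (adjusted p = 0.000977). Ccl22, a chemokine that draws regulatory T cells, fell by 3.52 ± 0.76 (adjusted p = 0.0126), and Ccl5, which draws T cells and monocytes, by 2.90 ± 0.59 (adjusted p = 0.00882). Clec10a, a galactose-binding lectin, fell by 2.61 ± 0.40 (adjusted p = 0.00107), from between 6.88 and 7.26 to between 4.29 and 4.61. Cd80, which costimulates T cells, fell by 1.37 ± 0.38 (adjusted p = 0.0440). Csf2ra, a chain of the GM-CSF receptor, fell by 1.26 ± 0.29 (adjusted p = 0.0172). Ccl22 missed the threshold without 65696 or 67169, and Cd80 in each case but that without 65696.

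Antigen presentation genes were lower in part. All 10 MHC class II genes had negative values, with a median of -1.08, and 3 of them passed (1.92% of all genes were lower). H2-Ob (chr17:34238905-34245908), the beta chain of the H2-O protein that restrains peptide loading, read 7.73, 8.13 and 7.76 at 5 days and 5.30, 5.33, 5.34 and 5.89 in recurrence. Its difference of -2.40 ± 0.24 (adjusted p = 2.33e-05) had the smallest adjusted p of the named genes, and the groups were far apart. H2-Oa, the alpha chain of the same protein, fell by 1.50 ± 0.35 (adjusted p = 0.0175) and H2-DMb2, part of the loading protein H2-DM, by 1.53 ± 0.33 (adjusted p = 0.0122). The genes of the presenting molecules themselves did not pass: H2-Ab1 was at -1.08 (adjusted p = 0.14), H2-Aa at -0.75 (0.34) and Cd74, the invariant chain, at -1.08 (0.1). Of 13 tested genes of MHC class I presentation 2 fell, the peptide transporter Tap2 by 0.97 ± 0.23 and its partner Tapbp by 0.77 ± 0.21, and the list median was -0.46. Reads of MHC genes can be shared between close copies. Without 1 library, 2 to 4 of the MHC class II genes passed, and neither Tap2 nor Tapbp passed without 65696, 67169, 67537, 67543 or 67947, nor Tapbp without 68362.

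**Figure D2:**
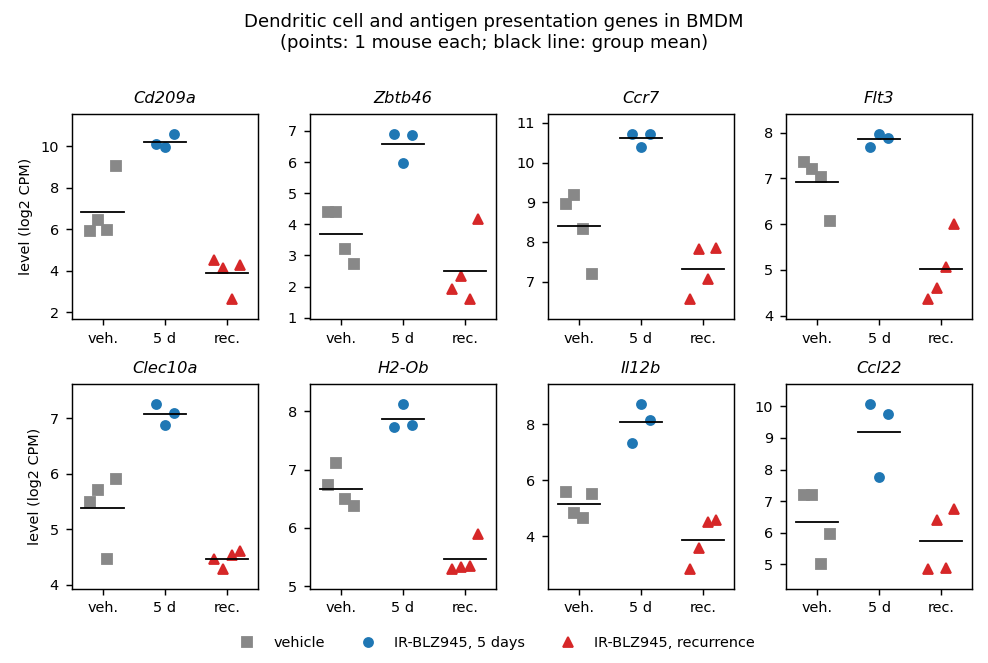
Levels in log2 CPM of 8 genes of dendritic cells and antigen presentation in BMDM, 1 point a mouse, for 4 vehicle mice (squares), 3 mice at 5 days of IR-BLZ945 (circles) and 4 recurrent mice (triangles), with a black line at each group's mean. The 5-day mice lie above all recurrent mice in each panel, for example Cd209a at 9.94 to 10.58 against 2.63 to 4.50.

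Targets of p53 were lower in recurrence. Of 24 tested, 7 fell and none rose (1.92% of all genes fell), 22 had negative values and the median was -1.03. Phlda3 (chr1:135766085-135769134), a p53 target that blocks the kinase AKT, read 6.45, 5.05 and 6.50 at 5 days and 2.07, 2.00, 2.65 and 1.83 in recurrence, a change of -3.98 ± 0.74 (adjusted p = 0.00557). Cdkn1a (chr17:29090979-29100722), which encodes the cell cycle inhibitor p21, read 9.92, 10.09 and 9.41 and then 8.47, 8.99, 8.37 and 7.54. The groups did not overlap, and the change was -1.41 ± 0.31 (adjusted p = 0.0135). Bbc3, which encodes the death protein PUMA, fell by 2.33 ± 0.49 (adjusted p = 0.0117), Ccng1, cyclin G1, by 1.37 ± 0.29 (adjusted p = 0.0111) and Pmaip1, which encodes NOXA, by 1.79 ± 0.39 (adjusted p = 0.0127). Mdm2, the p53 antagonist and itself a target, was at -0.67 (adjusted p = 0.14) and Bax at -0.81 (adjusted p = 0.16). The count of 7 became 4 without 67169 or without 67537, 12 without the 3 doubted libraries of other groups, and 2 with the Malat1 minus Lars2 term. Phlda3, Cdkn1a and Bbc3 passed with each of the 7 libraries left out.

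Genes of cell division rose. All 26 mitosis genes had positive values with a median of 2.34, and 8 passed, where 1.78% of all genes were higher. All 26 DNA replication genes were positive too, with a median of 1.31, and 10 passed. Birc5 (chr11:117849237-117855743), which encodes survivin, a subunit of the chromosomal passenger complex, read 3.51, 3.20 and 3.30 at 5 days and 6.37, 6.10, 5.73 and 5.84 in recurrence, a rise of 2.70 ± 0.37 (adjusted p = 0.000472). Tk1 (chr11:117815519-117826087), the thymidine kinase of S phase, read 2.73, 2.22 and 2.29 and then 5.78, 5.81, 5.22 and 5.37, a rise of 3.16 ± 0.39 (adjusted p = 0.000144). In both genes the mice of 1 stage lay within about 1 log2 unit of each other and far from the other stage.

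The kinase Cdk1, which drives entry into mitosis, rose by 1.92 ± 0.35 (adjusted p = 0.00468), Prc1, which bundles spindle microtubules, by 2.70 ± 0.49 (adjusted p = 0.00524) and the spindle checkpoint kinase Bub1b by 6.26 ± 1.23 (adjusted p = 0.00775). Bub1b read -3.58, 0.82 and -1.59 at 5 days and between 5.47 and 5.79 in recurrence. In the replication list Mcm5, a subunit of the replicative helicase, rose by 2.09 ± 0.34 (adjusted p = 0.00215), the DNA ligase Lig1 by 2.33 ± 0.49 and the sliding clamp Pcna by 1.32 ± 0.25 (adjusted p = 0.0119 and 0.00579). Mki67, the common marker of dividing cells, read 3.69, 4.12 and 3.09 at 5 days and 5.82, 5.63, 6.58 and 6.80 in recurrence, with a difference of 2.60 ± 0.83 that did not pass (adjusted p = 0.0873). Mouse 65971 was the exception at 5 days in some members: Ube2c, of the ubiquitin ligase that ends mitosis, read 6.03 there against 0.80 and 2.60, and Cdc45, a part of the replicative helicase, 5.41 against -1.64 and 2.36.

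The summed mitosis level was 156 to 554 CPM at 5 days, 1080 to 1320 CPM in recurrence and 589 to 1030 CPM in vehicle mice. The count of 8 mitosis genes was 13 without 65971, 4 without 67537, 5 without 67169 and 21 without the 3 doubted libraries of other groups. The count of 10 replication genes was 3 without 67537, 4 without 65696 or without 67169, 6 without 67543 and 18 without those 3 libraries. With the Malat1 minus Lars2 term 2 mitosis and 3 replication genes passed, at medians of 2.45 and 1.29.

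The promoters of the 2 mitosis and 2 replication genes with the smallest p are shown to place motifs known from cell cycle promoters: CCAAT, the site of NF-Y, and TTTGAA, the cell cycle homology region, in the mitosis genes, and TTTGGCGC, an E2F site, in the replication genes. Each window is RefSeq sequence of GRCm38.p6 from 250 bases upstream to the start of transcription, cut before the first annotated exon, 5′ to 3′ on the gene's strand, with matches on either strand in capitals.
Birc5, chr11:117848987-117849236, plus strand: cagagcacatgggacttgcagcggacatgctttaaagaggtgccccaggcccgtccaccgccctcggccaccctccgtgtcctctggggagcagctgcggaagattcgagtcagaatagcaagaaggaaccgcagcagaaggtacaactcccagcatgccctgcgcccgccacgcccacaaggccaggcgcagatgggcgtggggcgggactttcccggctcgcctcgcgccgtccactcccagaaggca
Cdk1, chr10:69352939-69353162, minus strand: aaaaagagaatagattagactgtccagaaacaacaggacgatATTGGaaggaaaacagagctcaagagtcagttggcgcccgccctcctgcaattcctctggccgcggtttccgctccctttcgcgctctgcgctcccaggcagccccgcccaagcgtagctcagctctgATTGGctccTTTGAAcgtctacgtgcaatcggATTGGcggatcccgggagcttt
Tk1, chr11:117826093-117826264, minus strand: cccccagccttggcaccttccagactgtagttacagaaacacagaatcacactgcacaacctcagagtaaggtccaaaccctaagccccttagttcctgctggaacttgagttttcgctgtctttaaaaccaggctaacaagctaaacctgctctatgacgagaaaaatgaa
Mcm5, chr8:75109259-75109467, plus strand: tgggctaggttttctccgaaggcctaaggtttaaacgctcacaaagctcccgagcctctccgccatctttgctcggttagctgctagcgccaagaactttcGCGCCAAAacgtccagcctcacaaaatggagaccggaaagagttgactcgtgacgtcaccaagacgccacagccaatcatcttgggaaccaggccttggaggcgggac

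The Cdk1 window held 3 CCAAT matches, each as ATTGG, and 1 TTTGAA between a pair of them, the Mcm5 window held 1 TTTGGCGC on the opposite strand, and the Birc5 and Tk1 windows held no match to the motifs searched in their list. Among 22 mitosis genes with a promoter in the table, CCAAT stood within 250 bases upstream in 20 (90.9%, against 34.5% of 27025 promoters) and TTTGAA in 7 (31.8% against 16.3%). TTTGGCGC stood in 3 of 20 replication genes (15.0% against 0.437%). Shares of genes with a motif were counted over the full 250 bases, without the cut at the first exon made in the printed windows. The matches are a description of letters, not of binding.

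**Figure D3:**
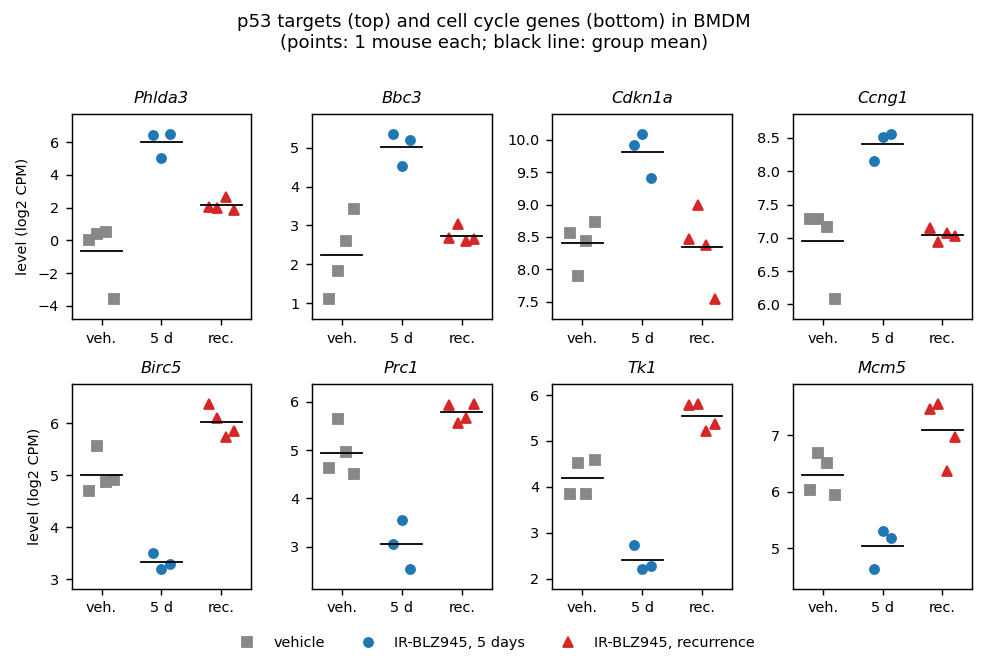
Levels in log2 CPM of 4 p53 targets (top) and 4 cell cycle genes (bottom) in BMDM, 1 point a mouse, for vehicle (squares), 5 days (circles) and recurrence (triangles) of IR-BLZ945, with a black line at each group's mean. The p53 targets are highest at 5 days and the cell cycle genes lowest, as in Cdkn1a at 9.41 to 10.09 against 7.54 to 8.99 and Tk1 at 2.22 to 2.73 against 5.22 to 5.81.

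The receptor that BLZ945 blocks was itself higher in recurrence. Csf1r (chr18:61105572-61131139) read 9.99, 9.67 and 10.08 at 5 days and 11.61, 11.36, 11.57 and 11.13 in recurrence, a rise of 1.51 ± 0.34 (adjusted p = 0.0152) with no overlap. Cebpa, a transcription factor of the myeloid lineage, rose by 2.31 ± 0.52 (adjusted p = 0.0156). The receptor's ligands did not pass, with Csf1 at -0.63 (adjusted p = 0.72) and Il34 at -2.16 (adjusted p = 0.64). Of the 13 genes of this receptor axis 2 rose and 1, Csf2ra, fell (1.78% of all genes were higher and 1.92% lower). Csf1r missed the threshold without 65696, 65971, 67169 or 67537, at adjusted p values of 0.0629, 0.0588, 0.0502 and 0.0571, Cebpa without 65696 or 67537, and Csf2ra without 67537 or 67543. With the Malat1 minus Lars2 term none of the 3 passed by edgeR, Csf1r at 1.23 (adjusted p = 0.197) and Cebpa at 0.47 (adjusted p = 0.682).

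Genes usually read as microglial were higher in recurrent BMDM. All 20 tested had positive values, with a median of 1.24, and 6 passed (1.78% of all genes were higher). P2ry12 (chr3:59216271-59262985), the ADP receptor of resting microglia, read 4.18, 4.91 and 5.50 at 5 days and 7.65, 7.03, 7.78 and 7.70 in recurrence, a rise of 2.61 ± 0.50 (adjusted p = 0.00644). Tmem119 (chr5:113793729-113800396), a membrane protein used to mark microglia, read 6.22, 5.41 and 6.75 and then 9.81, 9.35, 9.71 and 8.90, a rise of 3.26 ± 0.60 (adjusted p = 0.00509). Both genes passed with each of the 7 libraries left out. Cx3cr1, the fractalkine receptor, rose by 2.11 ± 0.48 (adjusted p = 0.0161) and Golm1, a Golgi membrane protein, by 1.57 ± 0.34 (adjusted p = 0.0128). Sall1, the transcription factor that sets microglial identity, was at 0.20 (adjusted p = 0.96). The list's summed level was 2790 to 4110 CPM at 5 days, 6770 to 11200 CPM in recurrence and 7640 to 13700 CPM in vehicle mice, and whether MG passed the gate was not tested. The count of 6 was 2 without 65696 and 3 without 65971 or without 67537.

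Of 22 genes that mark macrophages of blood origin, 2 fell and none rose (1.92% of all genes were lower), with a median of -0.31. Napsa, an aspartic protease, fell by 1.57 ± 0.37 (adjusted p = 0.0185), and no gene of the list passed as lower without 65696, 67169, 67537, 67543 or 67947. Ccr2, the receptor that brings monocytes to tissue, read between 8.70 and 9.12 at 5 days and between 6.80 and 8.11 in recurrence, without overlap, but its difference of -1.30 ± 0.50 did not pass (adjusted p = 0.154). Apoe, the lipid carrier of mature macrophages, was at 0.15 ± 0.51 (adjusted p = 0.924) and Mrc1, the mannose receptor, at 0.82 ± 0.63 (adjusted p = 0.523).

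Receptors of phagocytes and several inflammatory genes rose. The complement receptor C5ar1, which senses C5a, rose by 2.08 ± 0.45 (adjusted p = 0.0122) and C1qa, a chain of C1q, by 2.04 ± 0.46 (adjusted p = 0.0151), the 2 of 15 complement genes that passed (1.78% of all genes were higher). Of 6 genes of Fc gamma receptors and their signalling, Fcgr1, the high-affinity IgG receptor, rose by 1.40 ± 0.33 (adjusted p = 0.0185) and Fcgr4 by 2.34 ± 0.54 (adjusted p = 0.0169). The complement count was 0 without 65696 or 67537 and 1 without 65971 or 67169. The Fc count was 0 without 65696, 67169, 67537 or 67543 and 1 without 65971 or 67947. With the Malat1 minus Lars2 term both counts were 0 by edgeR, with C1qa at 0.83, Fcgr4 at 0.40 and Fcgr1 at 0.36 (adjusted p = 0.47, 0.784 and 0.63) and C5ar1 at an adjusted p of 0.166.

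Among 16 genes of inflammatory cytokines, 3 rose (1.78% of all genes were higher), and Il12b, given above, fell. Il1a (chr2:129299609-129310186), interleukin 1 alpha, read 6.80, 7.23 and 7.12 at 5 days and 9.85, 9.93, 9.42 and 8.95 in recurrence, a rise of 2.52 ± 0.49 (adjusted p = 0.00672). Nlrp3, the sensor of an inflammasome, rose by 2.15 ± 0.59 (adjusted p = 0.0427). Nos2, the inducible nitric oxide synthase, had no count in the 3 5-day libraries and 1111 counts over the 4 recurrent ones, at levels of 4.03, 5.84, 3.26 and 4.29, so it was at least 233-fold higher (adjusted p = 0.0270). Tnf, at 1.54 (adjusted p = 0.082), Il1b, at 0.89 (0.54), and Il6, at -0.58 (0.81), did not pass. The count of 3 was 1 without 65696, 67169, 67537 or 67543, with Il1a the gene that passed in each case. Nos2 also missed the threshold without 65971 (adjusted p = 0.0676). With the Malat1 minus Lars2 term no member rose by edgeR, with Il1a at 2.25 (adjusted p = 0.103), and 2 fell.

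Chemokines moved in both directions (1.78% of all genes were higher and 1.92% lower). Of 12 CC chemokines, Ccl2, which draws monocytes, rose by 2.99 ± 0.82 and Ccl4, which draws T cells and other leukocytes, by 1.86 ± 0.50 (adjusted p = 0.0449 and 0.0386), while Ccl22 and Ccl5 fell. Ccl2 was highest in mouse 67543, at 10 against 8.12 to 8.85 in the other recurrent mice, and 5.80 to 6.20 at 5 days. Cxcl14 rose by 2.87 ± 0.69 (adjusted p = 0.0214), the 1 of 14 genes of its list, and missed the threshold without 65696, 67169, 67537 or 67543. Neither Ccl2 nor Ccl4 passed without any 1 of 65696, 65971, 67169, 67537, 67543 and 67947, or with the Malat1 minus Lars2 term, under which they stood at 3.98 and 0.22 (adjusted p = 0.0807 and 0.889). Genes of alternative activation did not move as a group: of 17 tested, Ccl22 and Clec10a fell and the median was -0.44. Without 65971, 4 fell and 1 rose. With DESeq2 4 fell and 2 rose, and without the 3 doubted libraries of other groups 2 fell and 4 rose. Arg1, the arginase of such macrophages, read 5.69, 7.48 and 5.56 at 5 days and 11.29, 13, 9.36 and 9.13 in recurrence. Although its groups did not overlap, its difference of 5.01 ± 1.78 did not pass (adjusted p = 0.123).

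Heme and metal handling, and enzymes of glycolysis and hypoxia, were higher. Of 14 iron and heme genes 5 rose (1.78% of all genes were higher), with a list median of 1.13, and Hmox1 (chr8:75093618-75100593), the heme oxygenase, read 6.76, 6.79 and 5.99 at 5 days and 11.09, 12.26, 10.52 and 10.29 in recurrence. Its rise of 4.70 ± 0.70 (adjusted p = 0.00105) passed with each library left out, but not with the Malat1 minus Lars2 term (adjusted p = 0.0616). Blvrb, a biliverdin reductase, rose by 1.66 ± 0.39, the metallothionein Mt1 by 1.74 ± 0.44 and Cp, the copper ferroxidase ceruloplasmin, by 2.93 ± 0.60 (adjusted p = 0.0197, 0.0276 and 0.00985). A globin gene listed as Beta-s, a product of red blood cells, rose with them by 7.53 ± 1.95 (adjusted p = 0.0316), from -3.58, -0.83 and -2.59 to 5.75, 6.28, 2.99 and 0.37, and the part of red cell RNA in these results was not tested. The globin gene missed the threshold without 65696, 65971, 67169, 67537 or 67543 (adjusted p = 0.126, 0.0574, 0.0768, 0.134 and 0.0898) and with the Malat1 minus Lars2 term (3.46, adjusted p = 0.585).

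Of 23 hypoxia and glycolysis genes 9 rose (1.78% of all genes were higher), with a median of 1.27. Ldha (chr7:46842274-46855627), lactate dehydrogenase A, read 9.65, 9.81 and 9.36 at 5 days and 11.69, 12.27, 10.71 and 11.08 in recurrence, a rise of 1.94 ± 0.44 (adjusted p = 0.0154). Tpi1, triosephosphate isomerase, rose by 2.14 ± 0.47, Bnip3, a mitophagy receptor, by 2.88 ± 0.63 and Pdk1, a kinase that restrains pyruvate entry into mitochondria, by 1.57 ± 0.36 (adjusted p = 0.0133, 0.0133 and 0.0159). Mice 67169 and 67543 were the highest in Ldha, Tpi1, Hmox1 and Arg1, and they also had the highest Lars2 and the lowest Malat1 levels of the 4. The count of 9 was 0 without 65696 or without 67537, 2 without 67543 and 4 without 67169, and that of 5 iron and heme genes was 1 without 65696 and 2 without 67169, 67537 or 67543. With the Malat1 minus Lars2 term 0 and 1 genes passed, at medians of 0.66 and 0.46, and the 1 was Cp. ACGTG, the core of the hypoxia response element, stood within 250 bases upstream of 12 of 22 genes of the list (54.5% against 16.6% of all promoters). Oxidative phosphorylation genes, the other route of energy supply, had a median of 0.60, and of 25 none passed by edgeR, with 10 at an unadjusted p under 0.05 and 0 passing by DESeq2.

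**Figure D4:**
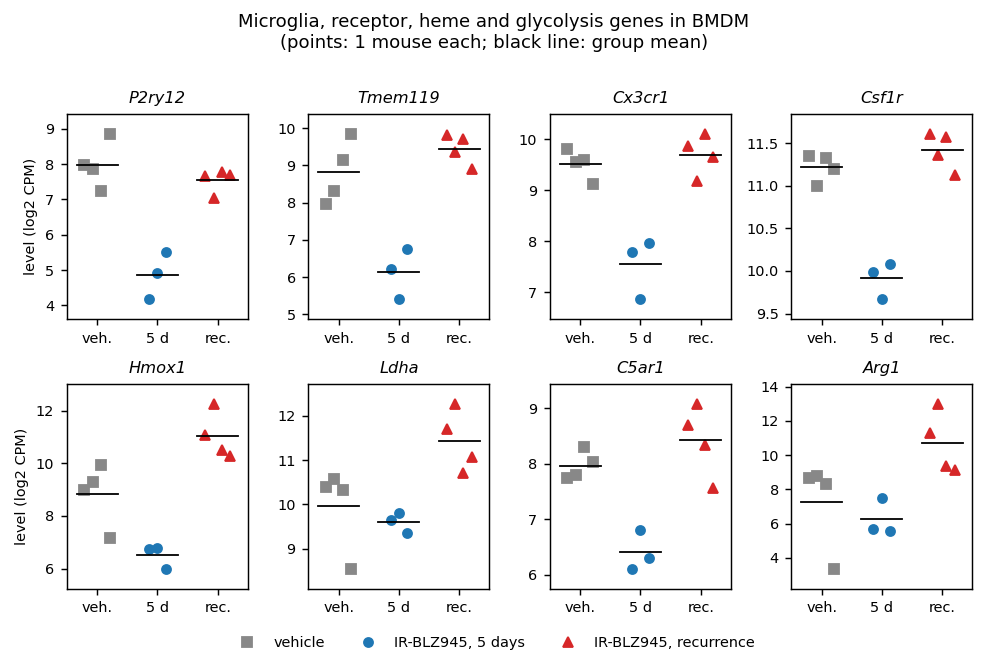
Levels in log2 CPM of 8 genes of microglia, receptors, heme and glycolysis in BMDM, 1 point a mouse, for vehicle (squares), 5 days (circles) and recurrence (triangles) of IR-BLZ945, with a black line at each group's mean. The recurrent mice lie above the 5-day mice in each panel, while Arg1 spreads from 9.13 to 13 within recurrence and mouse 65967 of the vehicle group reads 3.36.

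The largest rises included genes of matrix and growth factor binding. Of 25 matrix and protease genes, however, only Tnc passed (1.78% of all genes were higher), at a list median of 2.01. Col14a1 (chr15:55307644-55520803), a fibril-associated collagen, read -0.13, -1.63 and -1.01 at 5 days and 7.25, 6.87, 6.82 and 5.75 in recurrence, a rise of 7.76 ± 1.56 (adjusted p = 0.00855), and missed the threshold without 67537 (adjusted p = 0.0567). Igfbp3, which binds insulin-like growth factors, had no count at 5 days and 424 in recurrence, at least 88.7-fold more, and tenascin C, Tnc, none and 159, at least 33.3-fold more (adjusted p = 0.0184 and 0.0269). Igfbp3 missed the threshold without 65696 or 67537, and Tnc in each case but that without 68362. Igf1 itself read between 6.91 and 7.13 at 5 days and between 6.56 and 7.33 in recurrence (-0.07 ± 0.46, adjusted p = 0.963). Ctsc, cathepsin C, a lysosomal protease, rose by 1.70 ± 0.31 (adjusted p = 0.00482) and passed with each library left out. Among the 15 largest falls were Klf5, a zinc finger transcription factor (-6.92 ± 1.23, adjusted p = 0.00478), and the leukocyte receptor Lilra6 (-5.62 ± 1.01, adjusted p = 0.00468), which has close paralogs. Wnt11, a secreted WNT ligand, fell by 4.25 ± 0.77 (adjusted p = 0.00508). Dusp1, an immediate early gene that encodes a phosphatase, fell by 2.36 ± 0.52 (adjusted p = 0.0144), the 1 of 17 genes of its list that passed. It missed the threshold without 67169, 67537 or 67543.

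Markers of other cells also differed between the stages (1.78% of all genes were higher and 1.92% lower). Of 14 markers of glioma cells and oligodendrocyte precursors, which the tumours resemble, 5 rose: Olig2, with 0 counts at 5 days and 248 in recurrence (at least 51.8-fold), Sox10, with 1 and 367, Olig1 (5.90 ± 1.51), Pdgfra (4.97 ± 1.34) and Cspg4 (3.77 ± 1.02). Their summed level was 10.9 to 20 CPM at 5 days, 10.5 to 20.8 CPM in vehicle mice, and 61.3, 63.0, 324 and 87.3 CPM in the recurrent mice 67169, 67543, 67947 and 68362. None of the 5 passed without 65696, without 67537 or without 67947, and 1 to 4 did without any other. Markers of choroid plexus fell, 3 of 7, with Ttr, transthyretin, at 8.70, 3.07 and 7.96 at 5 days and without a count in 3 of the 4 recurrent mice. That list summed to 758, 10.7 and 714 CPM in 65696, 65971 and 67537 and 3.82 to 26.1 CPM in recurrence. None of the 3 passed without 65696, 67169, 67537, 67543 or 67947, 1 did without 68362, and 4 genes of the list did without 65971. Neutrophil markers summed to 2800, 208 and 1890 CPM at 5 days and 162 to 239 CPM in recurrence, B cell markers to 55.4 to 158 and 19.6 to 42.0 CPM, and T and NK cell markers to 148 to 201 and 37.5 to 168 CPM, and no member of these 3 lists passed by edgeR, with 4, 2 and 3 members at an unadjusted p under 0.05 and 2, 0 and 1 passing by DESeq2. Of astrocyte markers Clu fell by 2.58 ± 0.52 (adjusted p = 0.00838), and the list summed to 134 to 463 and 101 to 177 CPM. The part of RNA from such cells in the differences above was not tested.

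Several lists held few or no genes that passed (1.78% of all genes were higher and 1.92% lower). Of 19 genes of lipid-laden macrophages and 14 of cholesterol efflux none passed by edgeR, at medians of 0.15 and 0.38, with 1 and 5 at an unadjusted p under 0.05 and 0 and 1 passing by DESeq2. Of 26 interferon-induced genes, Bst2, which tethers budding viruses, rose by 1.60 ± 0.31 (adjusted p = 0.00672), and the median was 0.27, and Bst2 missed the threshold without 67537. Of 18 sterol synthesis genes Cyp51 fell by 1.10 ± 0.25 (adjusted p = 0.0159), at a median of -0.41, and missed it without 67169 or 67537. Of 13 heat shock genes the regulator Hsf1 fell by 1.11 ± 0.31 (adjusted p = 0.0462), and did not pass with any 1 library left out.

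Set beside vehicle mice, each stage has its own values, which share libraries with the main comparison and are not further evidence for it. At 5 days 49 genes were above vehicle (0.336%) and 34 below (0.233%). These 83 became 17, 157 and 29 without 65696, 65971 and 67537, and 33, 25 and 31 without the vehicle mice 41, 65966 and 78. Between recurrence and vehicle 4 genes were higher (0.0275%) and 0% were lower by edgeR, with 1504 genes of either direction at an unadjusted p under 0.05 and 211 by DESeq2. The 4 were Lars2, Mt2, a metallothionein, Capns1, the small calpain subunit, and Tatdn2, a nuclease gene, the last 3 named after their values were seen, and the count of 4 was 11 without 68362, 1 without 67947 and 0 without any other of the 8 libraries. Of the 24 p53 targets, 6 were above vehicle at 5 days and 1 was below, the kinase gene Plk3 (-1.91 ± 0.34, adjusted p = 0.00868), named after its value was seen, with Phlda3 at 6.29 ± 0.83 (adjusted p = 0.00127) and Cdkn1a at 1.40 ± 0.31 (adjusted p = 0.0375), and in recurrence these read 2.31 (adjusted p = 0.243) and -0.01 (adjusted p = 1). In the microglia list 4 of 20 were below vehicle at 5 days, P2ry12 by -3.13 ± 0.51 and Tmem119 by -2.77 ± 0.58 (adjusted p = 0.00718 and 0.0289), and in recurrence they read -0.52 and 0.48 (adjusted p = 0.729 and 0.799). Tk1 and Birc5 read -1.83 ± 0.37 and -1.72 ± 0.35 at 5 days (adjusted p = 0.0235 and 0.0284) and 1.33 and 0.98 in recurrence (adjusted p = 0.13 and 0.264). Of the dendritic list 2 of 12 were above vehicle at 5 days, Zbtb46 by 2.79 ± 0.58 (adjusted p = 0.0284) among them, while Cd209a read 2.70 ± 0.66 (adjusted p = 0.0672) at 5 days and -3.50 (adjusted p = 0.0747) in recurrence. A p above the threshold does not show that a stage equals vehicle.

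In MG of the same 7 mice, in 1 fit over all 46 libraries, 1675 of 15901 genes were higher in recurrence (10.5%) and 1582 lower (9.95%). The change itself differed between the populations for 52 genes more positive in BMDM (0.327%) and 106 more negative (0.667%). Antigen presentation was among these differences. Of 10 MHC class II genes 4 changed more negatively in BMDM: the list median was -1.07 there and 1.34 in MG, and H2-Ob differed by -3.56 ± 0.72 (adjusted p = 0.00906), H2-Oa by -2.89 ± 0.61 (adjusted p = 0.0110). Of the dendritic list 3 of 12 differed in the same direction, at medians of -2.73 and 0.68, and Il12b, at -4.12 in BMDM and 0.35 in MG, differed by -4.48 ± 1.14 (adjusted p = 0.0422). Cd209a did not pass that test (0.79 ± 1.07, adjusted p = 0.808), with -6.20 in BMDM and -6.99 in MG.

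Of 26 mitosis genes, 23 rose in MG, at a median of 4.88 against 2.35 in BMDM. For 5 of them the rise was smaller in BMDM, as for Ube2c, which differed by -6.79 ± 1.37, and for Tk1 in the replication list the difference was -4.67 ± 0.86 (adjusted p = 0.00835 and 0.00398). Their 5-day MG counts were low, 5 over the 3 libraries for each of Tk1 and Ube2c, so the fitted sizes lean on few counts. In the other direction, Cx3cr1 rose by 2.12 in BMDM and read -0.26 in MG, a difference of 2.37 ± 0.57 (adjusted p = 0.0275), and Ctsc differed by 1.68 ± 0.38 (adjusted p = 0.0165). Col14a1 differed by 7.18 ± 1.48 (adjusted p = 0.0101). The p53 list had medians of -1.01 in BMDM and -0.89 in MG, and the change differed by 0.50 ± 0.48 for Cdkn1a and by -1.50 ± 0.83 for Phlda3 (adjusted p = 0.688 and 0.408). The count of 158 genes was 53 without mouse 67947, 70 without 67169, 82 without 67543, 93 without 68362 and 97 without 65971.

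**Figure D5:**
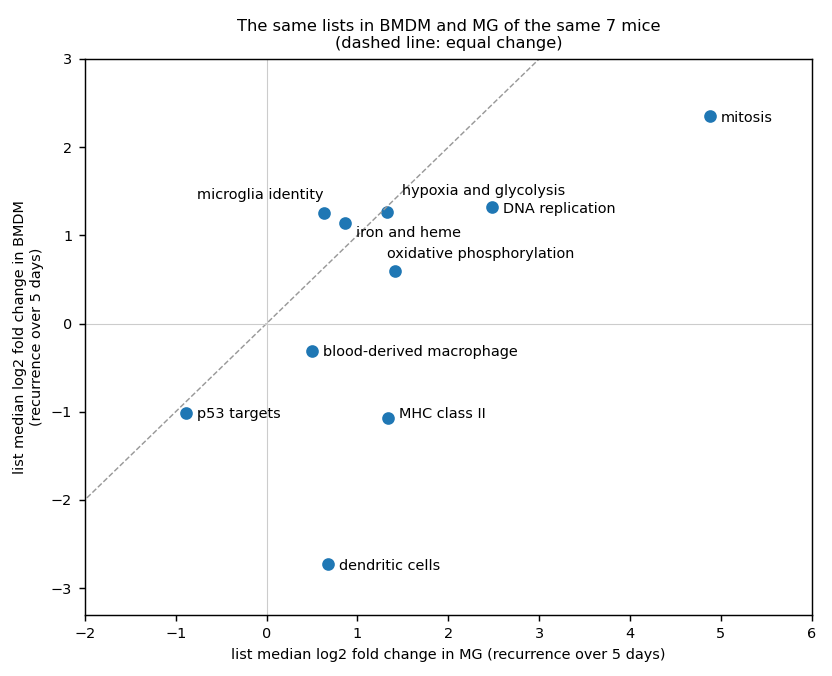
Median log2 difference between recurrence and 5 days of IR-BLZ945 for 10 gene lists in MG (horizontal axis) and BMDM (vertical axis) of the same 7 mice, 1 point a list, with a dashed line where both would be equal. MHC class II and dendritic cell genes lie below 0 in BMDM (-1.07 and -2.73) and above it in MG (1.34 and 0.68), and p53 targets lie near the line.

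After IR alone the same pair of stages was available from 4 recurrent and 2 5-day BMDM libraries. The change after IR-BLZ945 was more positive than that after IR for 25 genes (0.172%) and more negative for 48 (0.329%), at a median of -0.20 over all genes. Of 12 CC chemokines 2 changed more positively after IR-BLZ945, and of 15 complement genes 2 changed more positively and 1, Itgax (-2.06 ± 0.46, adjusted p = 0.0495, named after its value was seen), more negatively. Ccl2 rose by 2.99 after IR-BLZ945 and fell by 3.86 ± 0.82 after IR, a difference of 6.85 ± 1.18 (adjusted p = 0.00689). C5ar1 rose by 2.08 and fell by 1.94 ± 0.45 after IR (difference 4.02 ± 0.63, adjusted p = 0.00343), Ctsc by 1.70 and 1.26 ± 0.32 (difference 2.96 ± 0.44, adjusted p = 0.00203), and P2ry12, which rose by 2.61, read -0.41 ± 0.51 after IR (difference 3.02 ± 0.69, adjusted p = 0.0495). Of 26 mitosis genes 6 and of 26 replication genes 3 changed more negatively. In the replication list, Tk1 rose by 3.16 after IR-BLZ945 and by 5.68 ± 0.54 after IR, a difference of -2.52 ± 0.57 (adjusted p = 0.0495), and Mcm5 differed by -2.42 ± 0.51 (adjusted p = 0.0339). Birc5 and Prc1, of the mitosis list, had no count in the 5-day IR libraries and 289 and 235 in the 5-day IR-BLZ945 libraries. Phlda3, Cdkn1a and the dendritic cell genes Cd209a, Zbtb46 and Ccr7 fell after IR as well, by 4.01, 2.43, 7.85, 4.93 and 4.54, with adjusted p values of 1, 0.286, 0.419, 0.53 and 0.357 for the difference between the courses. The 5-day IR group held mouse 65698, 1 of the doubted libraries. The count of 73 genes was 25 without it and 793 without the other 5-day IR mouse, 65972, and between 35 and 47 without any 1 of 65696, the 4 recurrent IR-BLZ945 mice and the 4 recurrent IR mice.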

How the data were processed

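RNA of sorted BMDM and MG was amplified with a Smart-Seq kit and sequenced, per the labels' protocols. The authors deposited raw counts per gene symbol for 46 libraries. CASAVA 1.8, STAR 2.5.0e, HTSeq, DESeq2 and the mm10 build are named in the submitters' processing notes, and the annotation and strand setting are not given in the sources used here. Here 14568 of 23329 symbols, with 99.96% of counts, passed edgeR's filterByExpr (minimum count 10, minimum total 15). They entered 1 robust quasi-likelihood fit over 23 BMDM libraries with TMM scaling (R 4.3.3, edgeR 4.0.16, limma 3.58.1), with 16 residual degrees of freedom and a common biological coefficient of variation of 0.651. SE is the log2 difference over the root of F. A joint fit over 46 libraries, without a term for the mouse, tested BMDM against MG, so its p-values do not use the pairing. Levels are log2 CPM with a prior count of 1, p-values are Benjamini-Hochberg adjusted with a threshold of 0.05, and a gene without a count in a group was set at 3 counts over that group for a bound on its fold. Precision is limited by 3 and 4 mice a group. The mice are separate animals, and no 2 libraries of a group agreed within sampling noise (smallest chi-square per degree of freedom 35.4).

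BMDM and MG came from the same animals, so the mouse number pairs them. Deviations of the pairs correlated at 0.008, 0, 0.072, 0.275, 0.224, 0.442 and 0.179 in mice 65696, 65971, 67169, 67537, 67543, 67947 and 68362. Of 603 entries in 41 gene lists, 593 were found. Genes named were up to 4 of each list that passed, by smallest p (the 1 of smallest p where none did), the 15 largest rises and falls with a level of at least 3, the 5 in each direction whose change differed between populations or treatments, and 10 genes followed throughout with the markers of the gate and of RNA quality. The largest rises and falls were taken only among genes that passed without overlap between the 4 and the 3 libraries. Their separation was thus a condition of choice, not a result. Tnf, Il1b, Il6, Mdm2, Bax, H2-Aa, H2-Ab1, Cd74, Csf1, Il34, Sall1 and Siglech were named for their roles, outside this rule and after their values were seen. The comparison, lists and genes were chosen with earlier results of these data known. Single results for some genes are not reported here, although the counts and medians of their lists include them. The fits were tested on simulated data. Alternatives were DESeq2 1.42.0, RLE scaling, no low-count filter, other sets of libraries, a sex-linked term and leaving out each library, and a term for Malat1 minus Lars2 was chosen after seeing the data.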

Additional observations from a re-analysis of the deposited data

Results flagged for a closer look

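Of 156 pairs of a gene and a group, 17 held a library far from the others of its group, where chance gives about 1 in 20. That rate does not hold for genes that vary together, nor where the other libraries are tied without a count. Such ties were present for Ttr, Kl and Rgs5 in recurrence, and Kl and Rgs5 had only 2 and 1 counts over the 4 libraries. In the recurrent mouse 68362 Ttr read 2.95 log2 CPM, H2-Ob 5.89, Tap2 7.30, Pmaip1 7.64 and Kl -2.09, each above the other recurrent mice, and Cebpa 6.75, below them. In 67947 Tnc read 2.96, Mmp2 7.76 and Rgs5 -2.62, above the others, and Cdc45 3.76 and Cd209e -3.58, below them. In 67169 Wnt11 was low at -0.58. In the vehicle mouse 65967 Cd209a was high at 9.05, and Phlda3 at -3.58, Ccng1 at 6.08, Ldha at 8.55 and Arg1 at 3.36 were low.

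The change from 5 days to recurrence differed between IR-BLZ945 and IR in BMDM, by an interaction term in edgeR, for these named genes. It was more positive after IR-BLZ945 for Ccl7 (8.79), Ccl2 (6.85), Cp (5.05), Rcan1 (4.71), C5ar1 (4.02), P2ry12 (3.02) and Ctsc (2.96). It was more negative for Ube2c (-6.54), Tk1 (-2.52) and Mcm5 (-2.42). Fitted values of -12.04 for Klf5, -11.06 for Cdc45, -10.99 for Slco1a4, -10.72 for Ncapd2, -10.63 for Kif2c, -10.08 for Birc5 and -10.07 for Prc1 belong to genes without a count in the 2 IR 5-day libraries, so their size is set by the model and is no bound.

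The change differed between BMDM and MG of the same mice, by an interaction term, for these named genes. It was more positive in BMDM for Col14a1 (7.18), Rapgef5 (3.41), Mmp2 (3.32), Ston2 (3.32), Kcna3 (3.16), Cx3cr1 (2.37) and Ctsc (1.68). It was more negative for H2-Ob (-3.56), H2-Oa (-2.89), Il12b (-4.48), Ly6c1 (-6.79) and Tk1 (-4.67), and for Klrd1 (-9.76), Wnt11 (-8.81), Hepacam2 (-8.34), Pbk (-7.15) and Ube2c (-6.79). The 5-day MG libraries together held 0 counts of Klrd1 and Hepacam2, 1 of Wnt11, 2 of Pbk, 4 of Ly6c1 and 5 of Tk1 and Ube2c, so these sizes are no bounds.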

How the results depend on the processing

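All 98 named genes that passed kept their direction under every setting run for the comparison of recurrence with 5 days, and 14 passed under each. The 538 genes became 1155 with DESeq2, 1250 with only the libraries compared, 850 in the 46-library fit, 1661 without the doubted libraries, 260 with the sex-linked term, 196 with the Malat1 minus Lars2 term, and 161 to 543 without 1 library. For 5 days against vehicle, 83 became 564, 21, 271 and 824 under the first 4 of these, and 17 to 157 without 1 library. For recurrence against vehicle, 4 became 211, 1, 58 and 92, 0 with RLE scaling, 2 without the low-count filter, 0 with the sex-linked term, and 0 to 11 without 1 library. For IR-BLZ945 against IR, 73 became 610, 589, 288 and 114, 47 without the filter, 43 with the sex-linked term, and 25 to 793 without 1 library. For BMDM against MG, 158 became 707 with DESeq2, 200 with the mouse as a replicate block, which paired the populations, and 53 to 135 without 1 mouse. The 200 held 116 of the 158. Other settings left these counts within 1.5 times, and the cause of the shifts was not tested. Genes that reversed had not passed. With the Malat1 minus Lars2 term they were Ptprc (0.12), Itgam (-0.27), Ly6c2 (-1.21), Malat1 (0.55), Rn45s (-2.86), Ddx3y (-3.33), Eif2s3y (-3.09), Kdm5d (-1.87), Uty (-1.80), Igf1 (0.03) and Cdc45 (-1.31). Without 1 library each, values ranged from -4.33 to 0.29 for Tubb3, -0.04 to 0.49 for Ly6c2, -4.61 to 1.56 for Xist, -0.25 to 0.03 for Igf1, -0.09 to 0.36 for Apoe and -0.35 to 2.78 for Cdc45, and with the sex-linked term Ddx3y (-0.36). Depth of 7771613 counts or more leaves genes with few counts at 5 days the least certain.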
